A study of Mus musculus with 78 samples.

Results

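Tumor necrosis factor alpha (TNF-alpha) acted for 4 h on cartilage grown in vitro out of mouse iPSCs (induced pluripotent stem cells), and the mRNA of that tissue is described here. The 6 libraries were 3 of cartilage given 20 ng/mL TNF-alpha for 4 h and 3 of untreated cartilage taken at the same time, chosen by their labels out of the 78 libraries of the series, of which 39 measured mRNA. The same experiment held cartilage given 1 ng/mL interleukin-1 beta (IL-1beta), later times of both cytokines at 12, 24 and 72 h, and untreated controls at 0, 4, 12, 24 and 72 h. No genotype, cell line or mouse strain is given for any group, and the labels do not say whether the 3 libraries of a group came from separate cultures, so p-values measure the spread between libraries, which may be technical. Total RNA was taken from frozen, homogenized tissue, so fewer cells of a type and less RNA per cell cannot be told apart.

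TNF-alpha binds a receptor on nearly every cell type, and the receptor complex frees NF-kappaB transcription factors from their inhibitors and turns on the JNK and p38 kinases. In joints it is a cytokine of inflammatory arthritis, and chondrocytes, the cells of cartilage, answer it with chemokines, prostaglandin and nitric oxide enzymes and proteases that cut their matrix. Many of the first genes to respond code for inhibitors of the same pathway, among them IkappaB proteins and A20.

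Values are in counts-per-million of a library (CPM, with TMM scaling) unless a log2 fold change is named. A log2 fold change is written with its standard error from edgeR's quasi-likelihood fit, and a gene was called higher or lower where the Benjamini-Hochberg adjusted p of that test was under 0.05 over all 18857 genes tested. The tissue carried the markers of its label: the summed CPM of 10 chondrocyte markers was 110400 to 121200 in TNF-alpha libraries and 112500 to 117000 in control 4 h libraries, and 7 myeloid genes of a list of 12 passed the filter, with a sum over the list of 37.3 to 45.7 CPM against 42.3 to 46.7 CPM. Of these 7, Csf1r and Mrc1 were called higher (log2 fold changes 0.99 ± 0.34 and 1.11 ± 0.29) and Cd68 lower (-0.49 ± 0.17). These myeloid calls were all lost against control 12 h. The sum of 10 fibroblast markers did not overlap, with 32050 to 38870 CPM in TNF-alpha libraries and 29000 to 31500 CPM in control 4 h libraries, and 2 of them were called higher. The largest part of that sum was Col1a2, at 15000 CPM with TNF-alpha and 12630 CPM in control 4 h libraries on average. Neither Col1a2 nor the collagen genes Col1a1 and Col3a1 were called. Of the neural markers 2 of 8 tested were higher, of the muscle markers 2 were tested and none was called, and no marker of pluripotent cells passed the filter. The shares called were 20% for fibroblast, 25% for neural and 42.9% for myeloid markers, against 21.5% of all genes tested. The 2 groups were unlike in depth, with 13631748 to 15427084 counts in TNF-alpha libraries and 29215135 to 50491521 counts in control 4 h libraries. They also stood apart in repeat-like predicted genes such as Gm10800, which took 0.0771% to 0.171% of the counts in TNF-alpha libraries and 0.000496% to 0.000576% in control 4 h libraries. Control 0 h and IL-1beta 4 h libraries had the low level too, whereas control 12 h libraries had the high one, at 0.0881% to 0.157%. The part of this difference in the results was not tested, so the text says for the gene groups how many called genes also lay beyond the 3 control 12 h libraries on the same side. Over all genes tested these were 3045 of the 4048 called. Fewer passed the test against control 12 h in the same direction, 1496 of the 2052 called higher and 1186 of the 1996 called lower. Against control 0 h 1245 and 971 of them passed.

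At 4 h 2052 genes were higher and 1996 were lower with TNF-alpha than in control 4 h cartilage, 10.9% and 10.6% of the genes tested, and the response leaned to large rises. Of the called genes 646 rose and 181 fell by at least 2-fold, 3.43% and 0.96% of the genes tested. The 3 TNF-alpha libraries lay above all 3 control 4 h and all 3 control 12 h libraries for 1644 of the genes called higher, and below all of them for 1401 of the genes called lower, 8.72% and 7.43% of the genes tested. The 3 TNF-alpha and 3 control 4 h libraries did not overlap for 7341 genes, 38.9% of those tested, so such separation was common. The naming rule required it of the genes with the largest rises and falls. Most list members below were named by lowest p in this comparison, so that their groups do not overlap largely follows from the choice too. The median log2 fold change over all genes tested was -0.02. With library totals in place of TMM scaling 1706 genes were higher and 2505 lower. Without control 4 h replicate a the number of genes called lower was 1217. With the left-out control 0 h replicate b in the fit, 1004 genes were higher and 580 lower, and among the genes named with values below the calls of Adamts6, Cdon, Cemip, Erg, Gas1, Gdf5, Hif1a, Il6st, Junb, Prg4, Prrx1, Sdc4, Sox6, Sqstm1, Thy1, Tnc, Vcan and Wwp2 were lost.

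**Figure D1:**
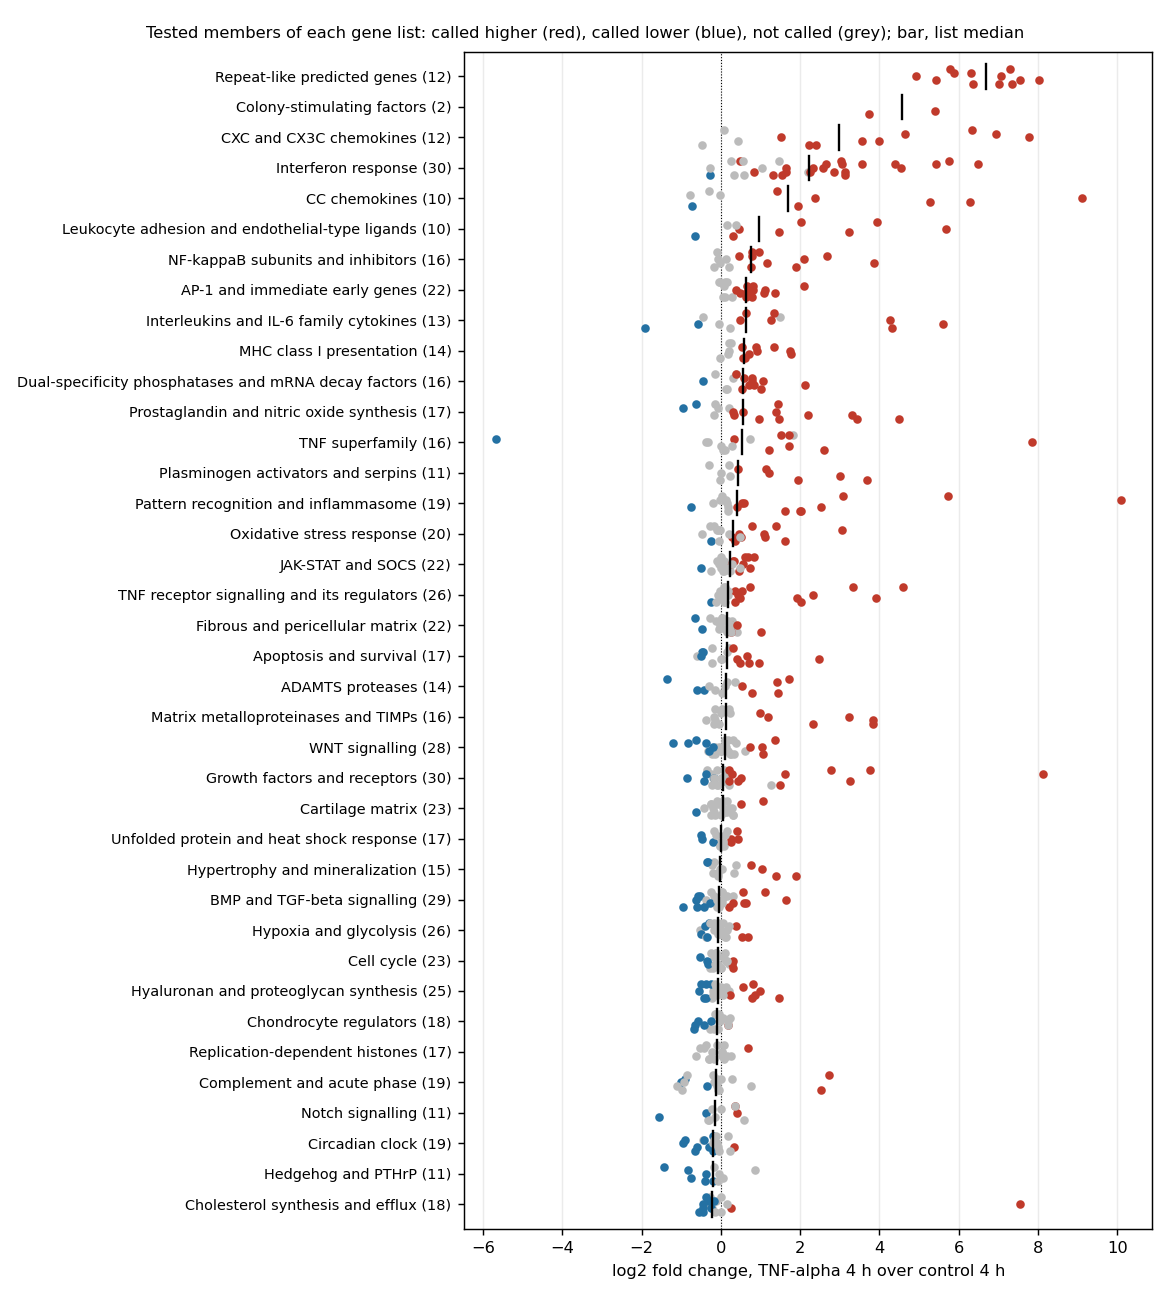
Log2 fold change of TNF-alpha 4 h over control 4 h (horizontal axis) for the tested members of each gene list (rows, with the number tested in brackets), red where called higher, blue where called lower, grey where not called, with a bar at the list median. Chemokines, interferon response genes and NF-kappaB regulators lie to the right, cartilage matrix genes lie about 0, and the repeat-like predicted genes at the top are those that also separate IL-1beta 4 h, control 4 h and control 0 h libraries from the others.

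The NF-kappaB system itself was among the groups that rose. Of 16 tested subunits and inhibitors 10 were higher and none lower, their median log2 fold change was 0.77, and all 10 also lay above every control 12 h library. Nfkbia, which codes for the inhibitor IkappaB-alpha, had 225, 198 and 249 CPM in TNF-alpha libraries against 37.2, 35.7 and 32.4 CPM in control 4 h libraries (log2 fold change 2.67 ± 0.09, edgeR adjusted p 6.17e-22). The lowest TNF-alpha library was thus far above the highest control. Nfkbie, for the related inhibitor IkappaB-epsilon, had 43.6, 39.1 and 50.9 CPM against 3.29, 3.17 and 2.63 CPM (log2 fold change 3.87 ± 0.19). Among the subunits Nfkb2, the precursor of p52 in the alternative branch of the pathway, had 148, 134 and 164 CPM against 35.4, 33.7 and 34.6 CPM (log2 fold change 2.10 ± 0.10). Its partner Relb had 79, 81.7 and 90.4 CPM against 22.7, 22.1 and 23 CPM (log2 fold change 1.89 ± 0.09). The groups did not overlap for any of these 4 genes.

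Of 26 tested genes of TNF receptor signalling 12 were higher and 1 was lower, with a list median of 0.18, and 11 of these 13 also lay beyond all control 12 h libraries on the same side. Tnfaip3, the gene of the ubiquitin-editing inhibitor A20, had 83.6, 72.6 and 88.8 CPM in TNF-alpha libraries and 7.34, 9.8 and 7.54 CPM in control 4 h libraries (log2 fold change 3.32 ± 0.14, edgeR adjusted p 1.35e-19). Tnip1, which codes for a protein that binds A20, had 72.5, 67 and 87 CPM against 15.2, 15.1 and 14.9 CPM (log2 fold change 2.32 ± 0.12). The adaptor Traf1 had 8.27, 6.05 and 8.33 CPM in TNF-alpha libraries against 0.667, 0.401 and 0.34 CPM in control 4 h libraries (log2 fold change 3.92 ± 0.21), so it was under 1 CPM without the cytokine. Birc3, for the survival protein cIAP2, rose to 56.4, 46.7 and 50.4 CPM against 14.3, 12.8 and 13.6 CPM (log2 fold change 1.91 ± 0.10). The 1 gene called lower was Tnfrsf1a, the receptor that TNF-alpha binds on most cells, named here after its value was seen. Its libraries were close together, at 123, 146 and 131 CPM with TNF-alpha and 158, 167 and 151 CPM in control 4 h cartilage (log2 fold change -0.25 ± 0.06, edgeR adjusted p 0.004), and did not lie below the control 12 h libraries.

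Chemokines, the secreted proteins that draw leukocytes, rose in most cases, and their CXC group had the largest median log2 fold change of the lists of 10 or more genes other than the repeat-like genes. In the CXC and CX3C group 9 of 12 tested genes were higher and none lower (median log2 fold change 2.99), and in the CC group 6 of 10 were higher and 1 lower (median log2 fold change 1.68). All but 1 of these 16 calls also lay beyond the control 12 h libraries. Cxcl1, Cxcl2 and Cxcl3, neighbours on chromosome 5, code for ligands of the neutrophil receptor CXCR2. Cxcl1 had 186, 171 and 242 CPM in TNF-alpha libraries and 15.5, 17.4 and 17.6 CPM in control 4 h libraries (log2 fold change 3.57 ± 0.17). Cxcl2 had 41.2, 36.1 and 51.6 CPM against 0.25, 0.474 and 0.371 CPM (log2 fold change 6.93 ± 0.27). Cxcl3 had 15, 8.04 and 14.5 CPM against 0.146, 0.0729 and 0.216 CPM (log2 fold change 6.35 ± 0.35). For both the control libraries were all under 1 CPM, while no TNF-alpha library was under 8 CPM. Cxcl5, another CXCR2 ligand, was already present, with 369, 385 and 527 CPM against 90.4, 68 and 81.9 CPM (log2 fold change 2.41 ± 0.20).

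The attractants of monocytes and lymphocytes moved with them. Ccl2, which draws monocytes, reached the highest level of the group, with 936, 720 and 972 CPM in TNF-alpha libraries against 25.9, 21.6 and 19.5 CPM in control 4 h libraries (log2 fold change 5.29 ± 0.21, edgeR adjusted p 9.73e-21). Its neighbour in function Ccl7 had 140, 113 and 168 CPM against 29.3, 27.3 and 24.7 CPM (log2 fold change 2.37 ± 0.17). Ccl20, the ligand of CCR6 on Th17 and dendritic cells, had 62.5, 50.5 and 81.4 CPM against 0.0625, 0.182 and 0.124 CPM, which rests on 2608 counts in the TNF-alpha libraries and 12 in the controls (log2 fold change 9.11 ± 0.50). Ccl20 was therefore almost silent in untreated cartilage and moderate after 4 h. Ccl5, which draws T cells, had 44, 36.5 and 50.9 CPM against 0.646, 0.364 and 0.587 CPM (log2 fold change 6.29 ± 0.37). Cxcl10, which binds CXCR3 and also belongs to the interferon response, had 54.8, 42.4 and 71.8 CPM against 0.167, 0.109 and 0.494 CPM (log2 fold change 7.78 ± 0.83), and its control 12 h libraries had 1.72, 0.904 and 0.305 CPM, all far below the TNF-alpha libraries.

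Stretches of the promoters of 8 genes follow, chosen because they hold the kappaB motif, which NF-kappaB binds, and are described here. They are from RefSeq, build GRCm38.p6, 5′ to 3′ on the strand of the gene, with 25 bases on each side of the first kappaB match on either strand, which stands in capitals.
Cxcl1: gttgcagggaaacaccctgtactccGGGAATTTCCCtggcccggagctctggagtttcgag
Cxcl2: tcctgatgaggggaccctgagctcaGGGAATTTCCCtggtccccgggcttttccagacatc
Cxcl3: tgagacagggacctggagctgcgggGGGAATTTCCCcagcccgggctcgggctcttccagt
Cxcl10: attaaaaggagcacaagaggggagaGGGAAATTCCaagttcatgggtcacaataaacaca
Ccl20: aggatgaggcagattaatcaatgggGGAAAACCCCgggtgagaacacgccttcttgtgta
Gbp5: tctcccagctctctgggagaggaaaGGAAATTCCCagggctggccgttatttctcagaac
Nfkbia: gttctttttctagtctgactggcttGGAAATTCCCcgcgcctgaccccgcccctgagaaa
Il6: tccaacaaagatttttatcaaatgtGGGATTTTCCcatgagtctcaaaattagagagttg
The 3 neighbouring chemokine genes hold the same run of letters, which contains 2 overlapping matches, at 71 to 61 bases before the annotated start in Cxcl1 (stretch chr5:90891149-90891209), 97 to 87 in Cxcl2 (chr5:90903777-90903837) and 73 to 63 in Cxcl3 (chr5:90786003-90786063). The others lie at chr5:92349014-92349073 for Cxcl10 (minus strand), chr1:83116661-83116720 for Ccl20, chr3:142496832-142496891 for Gbp5, chr12:55492642-55492701 for Nfkbia (minus strand) and chr5:30013045-30013104 for Il6. Cxcl10 has a further match. The AP-1 motif TGANTCA, which reads the same on both strands, is in a promoter of Cxcl10, Sele, Il6, Tnfaip3 and Nfkb2. It is also in a promoter of Kcne3, Cidec and Il17a, which are among the 15 genes with the largest falls. Among the 15 genes with the largest rises 12 have a promoter in the RefSeq table and 7 of those hold a kappaB match in the 300 bases from 250 before the start to 50 after it. No match was found in those windows of Tnf, Ch25h, Icosl, Sele or Il1rl1. Of 7 further genes looked up and found there, Nfkbia, Cxcl1, Il6, Tnfaip3 and Nfkb2 hold a match, and Icam1 and Birc3 hold none. A kappaB match had to fit GGGRNWYYCC in full (R, A or G, N, any base, W, A or T, Y, C or T). Sites that depart from this string were not counted, so a gene without a match may still hold a site that NF-kappaB binds. The kappaB motif is in 4.51% and the AP-1 motif in 7.81% of all 32851 promoters of the table. Of the 15 genes with the largest falls 11 have a promoter there, and 1, Olfm4, holds a kappaB match.

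Cytokines and growth factors for leukocytes rose with the chemokines. Of 13 tested interleukins and relatives 7 were higher and 2 lower (median log2 fold change 0.62), and both tested colony-stimulating factors were higher. Of these calls 8 of the 9 interleukin genes and both colony-stimulating factors lay beyond the control 12 h libraries too. Csf1, the growth factor of macrophages and osteoclast precursors, had 379, 329 and 401 CPM in TNF-alpha libraries and 25.6, 27.5 and 29.9 CPM in control 4 h libraries (log2 fold change 3.74 ± 0.12, edgeR adjusted p 1.44e-22). Csf3, the growth factor of neutrophils, had 10.7, 11.7 and 17.3 CPM against 0.313, 0.328 and 0.278 CPM (log2 fold change 5.40 ± 0.41). Both were separated from the controls in every library. Il6 had 28.6, 29 and 36 CPM against 1.31, 2.04 and 1.42 CPM (log2 fold change 4.33 ± 0.22). Lif, a cytokine that shares its signalling receptor gp130, had 166, 146 and 216 CPM against 3.33, 4.7 and 3.06 CPM (log2 fold change 5.59 ± 0.24). Il1rn, the natural antagonist of IL-1, rose by less, with 52.1, 48.5 and 65.2 CPM against 24.2, 23.5 and 21 CPM (log2 fold change 1.27 ± 0.17). Tslp, an epithelial-type cytokine of allergic inflammation, stayed low but apart, with 1.66, 1.18 and 1.2 CPM against 0.0417, 0.0729 and 0.0927 CPM (log2 fold change 4.26 ± 0.59, edgeR adjusted p 9.26e-07). Il17a was among the 2 called lower, at 0.621, 0.516 and 0.401 CPM against 2.06, 2.08 and 1.79 CPM (log2 fold change -1.93 ± 0.36, edgeR adjusted p 0.000205), from 21 counts in the TNF-alpha libraries and 214 in the controls, and did not pass against control 0 h.

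Within the TNF superfamily 7 of 16 tested ligands and receptors were higher and 1 was lower (median log2 fold change 0.53). All 8 also lay beyond the control 12 h libraries. Tnf itself, the gene of the added cytokine, had 8.14, 7.38 and 7.45 CPM in TNF-alpha libraries against 0.0417, 0 and 0.0309 CPM in control 4 h libraries. With 311 counts against 3 the ratio of its CPM was 276, with a 95% counting interval of 93.4 to 1344 that covers counting error only (edgeR adjusted p 3.52e-16). Tnfsf11, which codes for RANKL, the cytokine that matures osteoclasts, had 59.7, 54.5 and 79.6 CPM against 9.13, 12 and 11.2 CPM (log2 fold change 2.59 ± 0.21). The death receptor Fas had 31.2, 27.6 and 31.2 CPM against 9.82, 7.47 and 10 CPM (log2 fold change 1.71 ± 0.16). Tnfsf15, the ligand TL1A, had 4.83, 5.83 and 4.57 CPM against 1.1, 2.51 and 1.24 CPM (log2 fold change 1.71 ± 0.26). None of these 4 genes overlapped between the groups. The 1 gene called lower, Tnfsf14, had no count in the TNF-alpha libraries and 31 in the control 4 h libraries.

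Leukocyte adhesion genes, which in blood vessels hold passing leukocytes, rose in 7 of 10 tested cases and fell in 1 (median log2 fold change 0.97), and 7 of these 8 also lay beyond the control 12 h libraries. Icam1, the ligand of beta2 integrins, had 783, 655 and 820 CPM in TNF-alpha libraries against 49.6, 48.9 and 49.1 CPM in control 4 h libraries (log2 fold change 3.93 ± 0.11, edgeR adjusted p 8.82e-25). Vcam1, the ligand of the integrin VLA-4, had 525, 441 and 489 CPM against 126, 104 and 128 CPM (log2 fold change 2.02 ± 0.15). Sele, for E-selectin, an endothelial gene by its usual site, had 20.4, 17 and 19.9 CPM against 0.271, 0.255 and 0.587 CPM (log2 fold change 5.69 ± 0.25). Of 10 endothelial markers 4 passed the filter, and none of them was higher in the TNF-alpha libraries: Pecam1 averaged 0.677 CPM with TNF-alpha and 0.708 CPM in control 4 h cartilage, and Vwf 0.662 and 0.504 CPM. The sum of that list, 141 to 165 CPM against 206 to 228 CPM, was nearly all Erg, which chondrocytes also express and which was lower (log2 fold change -0.54 ± 0.07). Cd44, the receptor of hyaluronan, had 343, 321 and 363 CPM against 113, 132 and 124 CPM (log2 fold change 1.48 ± 0.08).

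**Figure D2:**
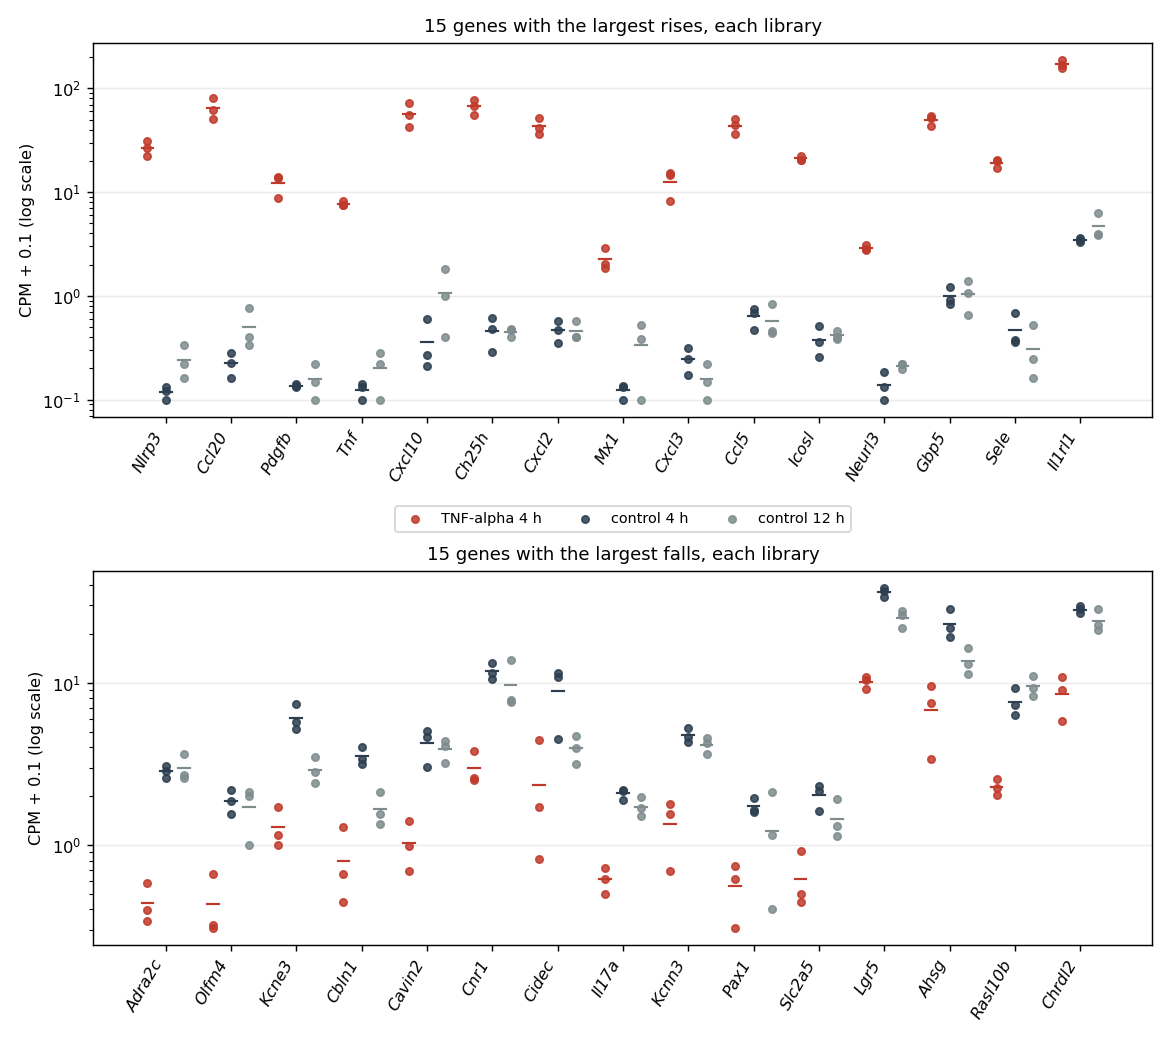
CPM of each library (log axis, 0.1 added) for the 15 genes of largest rise (top) and largest fall (bottom) by the naming rule, with TNF-alpha 4 h libraries in red, control 4 h in dark blue and control 12 h in grey, and short lines at the group means. In the top panel the TNF-alpha libraries lie above both sets of controls for every gene, and in the bottom panel Cidec and Pax1 overlap with control 12 h libraries.

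Genes of innate sensing were higher in 10 of 19 tested cases. The gene of largest rise by the naming rule was Nlrp3, which codes for the sensor of the inflammasome that matures IL-1beta. It had 22.4, 26.3 and 30.9 CPM in TNF-alpha libraries against 0.0209, 0 and 0.0309 CPM in control 4 h libraries, or 1067 counts against 2, a ratio of 1418 with a counting interval of 391.6 to 11730. In the deeper control 4 h libraries Nlrp3 was thus at or near 0. In the whole list of pattern recognition and the inflammasome 1 gene was lower (median log2 fold change 0.41), and all 11 called genes also lay beyond the control 12 h libraries. Tlr2, the receptor for bacterial lipoproteins, had 495, 447 and 508 CPM against 58.4, 59.2 and 55.1 CPM (log2 fold change 3.07 ± 0.10). Gsdmd, whose protein forms the pores of pyroptosis, had 12.1, 9.29 and 10.3 CPM against 2.04, 2.55 and 3.4 CPM (log2 fold change 2.01 ± 0.21), and Nod2, a sensor of cell wall peptides, 15.9, 15.6 and 22.2 CPM against 3.96, 4.88 and 4.39 CPM (log2 fold change 2.03 ± 0.15). The secreted pentraxin Ptx3 had 258, 271 and 351 CPM against 48.9, 45 and 58.7 CPM (log2 fold change 2.53 ± 0.36).

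Of 30 tested interferon response genes 21 were higher and 1 lower, with a median of 2.21, and 20 of these 22 also lay beyond all control 12 h libraries on the same side. Irf1, a transcription factor induced by NF-kappaB and by interferon, had 50.2, 40.6 and 48.6 CPM with TNF-alpha and 8.07, 6.41 and 7.54 CPM in control 4 h cartilage (log2 fold change 2.65 ± 0.17). Irf5 had 5.38, 6.05 and 5.85 CPM against 0.709, 0.875 and 0.835 CPM (log2 fold change 2.85 ± 0.22). The guanylate-binding proteins, GTPases that act against bacteria and parasites inside cells, moved further. Gbp5 had 53.9, 43.8 and 51.9 CPM against 1.13, 0.729 and 0.804 CPM (log2 fold change 5.75 ± 0.32). Gbp2 had 138, 112 and 138 CPM against 5.5, 5.21 and 5.9 CPM (log2 fold change 4.54 ± 0.25). Mx1, for an antiviral GTPase, was far lower in level, with 1.93, 2.8 and 1.76 CPM against 0, 0.0364 and 0.0309 CPM, or 88 counts against 2, a ratio of 117 with a counting interval of 31.4 to 981 (edgeR adjusted p 0.000646). The standard error of its log2 fold change was 1.38, against 0.25 for Gbp2.

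Genes that load peptides on MHC class I molecules rose in 9 of 14 tested cases and fell in none (median log2 fold change 0.58), and all 9 also lay above every control 12 h library. Psmb8 and Psmb10 code for subunits of the immunoproteasome, which cuts proteins into such peptides. Psmb10 had 25.7, 20.9 and 20.2 CPM in TNF-alpha libraries and 7.17, 5.9 and 6.46 CPM in control 4 h libraries (log2 fold change 1.77 ± 0.19). Psmb8 had 13.9, 13.4 and 13.9 CPM against 3.38, 5.14 and 4.02 CPM (log2 fold change 1.74 ± 0.25). Both changes were larger than that of the peptide transporter Tap2, with 37, 37.4 and 37.6 CPM against 19.4, 20 and 19.8 CPM (log2 fold change 0.92 ± 0.13). The class I gene H2-Q4 had 24.8, 24.1 and 25.8 CPM against 7.9, 11.5 and 10.2 CPM (log2 fold change 1.35 ± 0.21), but near-identical H2 genes may share its reads.

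Other genes of large rise came from several pathways. Ch25h, which makes the oxysterol 25-hydroxycholesterol, had 67.8, 55 and 78 CPM in TNF-alpha libraries and 0.375, 0.51 and 0.185 CPM in control 4 h libraries (log2 fold change 7.54 ± 0.31). Il1rl1, for ST2, the receptor of IL-33, had 189, 159 and 167 CPM against 3.5, 3.17 and 3.37 CPM (log2 fold change 5.67 ± 0.21), and Icosl, for the ligand of the T cell receptor ICOS, 22.3, 20.4 and 20.5 CPM against 0.417, 0.255 and 0.154 CPM (log2 fold change 6.14 ± 0.38). All of these lay under 1 CPM in the controls except Il1rl1. Pdgfb, the B chain of platelet-derived growth factor, had 13.9, 8.63 and 13.5 CPM against 0.0417, 0.0364 and 0.0309 CPM, or 488 counts against 4 (log2 fold change 8.14 ± 0.55). Neurl3, an E3 ubiquitin ligase, had 2.69, 2.73 and 2.96 CPM against 0.0834, 0 and 0.0309 CPM (log2 fold change 5.76 ± 0.44).

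The enzymes of prostaglandin and nitric oxide synthesis, which mediate pain and matrix loss in joints, were higher for 11 and lower for 2 of 17 tested genes (median log2 fold change 0.55). Of these 13, 10 also lay beyond the control 12 h libraries. Ptges, the terminal enzyme of prostaglandin E2 synthesis, had 736, 636 and 789 CPM in TNF-alpha libraries against 66.9, 80.7 and 69.1 CPM in control 4 h libraries (log2 fold change 3.32 ± 0.10, edgeR adjusted p 2.94e-24). Nos2, the inducible nitric oxide synthase, had 358, 351 and 435 CPM against 12, 25.4 and 14.2 CPM (log2 fold change 4.49 ± 0.22). Slc7a2, a carrier of arginine, the substrate of that enzyme, was abundant in both groups, with 2738, 2546 and 3118 CPM against 603, 612 and 633 CPM (log2 fold change 2.19 ± 0.08). Gch1, which makes a cofactor of the same enzyme, had 52.3, 49 and 55.5 CPM against 21, 21.1 and 18.2 CPM (log2 fold change 1.38 ± 0.10). The groups did not overlap for any of these 4 genes.

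Genes of the oxidative stress response were higher for 10 and lower for 1 of 20 tested (median log2 fold change 0.31). Of these 11, 10 also lay beyond the control 12 h libraries. Slc7a11, the cystine carrier that feeds glutathione synthesis, had 189, 193 and 191 CPM in TNF-alpha libraries against 19.1, 26 and 24.7 CPM in control 4 h libraries (log2 fold change 3.05 ± 0.12). Sod2, the mitochondrial superoxide dismutase, had 329, 318 and 370 CPM against 107, 113 and 113 CPM (log2 fold change 1.61 ± 0.09), and Txnrd1, thioredoxin reductase, 292, 282 and 311 CPM against 105, 116 and 118 CPM (log2 fold change 1.38 ± 0.07). The autophagy receptor Sqstm1 had 1254, 1139 and 1118 CPM against 557, 551 and 526 CPM (log2 fold change 1.10 ± 0.07).

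Proteases rose for some enzymes of each family. Of 16 tested matrix metalloproteinases and their TIMP inhibitors 6 were higher and none lower (median log2 fold change 0.12), and all 6 also exceeded every control 12 h library. The share called was 37.5%, against 21.5% of all genes tested. Mmp3, stromelysin 1, which cuts proteoglycans and activates other enzymes, was the most abundant of the 4 named, with 1740, 1537 and 2235 CPM in TNF-alpha libraries against 342, 369 and 392 CPM in control 4 h libraries (log2 fold change 2.32 ± 0.13). Mmp10, a close relative, had 15.9, 16.4 and 15.7 CPM against 1.4, 0.984 and 0.865 CPM (log2 fold change 3.83 ± 0.29), Mmp12 had 6.34, 5.53 and 8.89 CPM against 0.521, 1.06 and 0.742 CPM (log2 fold change 3.22 ± 0.36), and Mmp9 was low in both, with 2.83, 1.48 and 3.93 CPM against 0.125, 0.219 and 0.247 CPM (log2 fold change 3.83 ± 0.48). In each of these 4 genes every TNF-alpha library exceeded every control.

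Of 14 tested ADAMTS proteases 5 were higher and 3 lower (median log2 fold change 0.14). Of the 8, 7 also lay beyond the control 12 h libraries. The aggrecanases Adamts4 and Adamts5, which cut the core protein of aggrecan, both rose. Adamts4 had 63.4, 59.6 and 91.3 CPM with TNF-alpha and 20.7, 19.4 and 24.5 CPM in control 4 h cartilage (log2 fold change 1.73 ± 0.18). Adamts5 had 25.3, 29.2 and 31.6 CPM against 9.92, 9.98 and 12 CPM (log2 fold change 1.43 ± 0.16). Adamts9 moved likewise, with 24.9, 20.7 and 25.1 CPM against 8.01, 8.82 and 9.92 CPM (log2 fold change 1.41 ± 0.14), while Adamts6 fell, with 113, 123 and 101 CPM against 170, 167 and 173 CPM (log2 fold change -0.60 ± 0.08). In the plasminogen system 6 of 11 tested genes were higher and none lower, and all 6 also exceeded the control 12 h libraries. Plau, urokinase, had 129, 108 and 132 CPM against 16, 15.5 and 14.4 CPM (log2 fold change 3.0 ± 0.12), its receptor Plaur 80.1, 61.1 and 80.5 CPM against 31.6, 36.5 and 28 CPM (log2 fold change 1.21 ± 0.13), and the tissue activator Plat 28.9, 24.3 and 30.9 CPM against 8.92, 5.54 and 7.26 CPM (log2 fold change 1.93 ± 0.21).

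Transcription factors of the AP-1 family and feedback regulators of the kinase pathways were mostly higher where called. Of 22 tested AP-1 and immediate early genes 14 were higher and none lower (median log2 fold change 0.64), and all 14 also exceeded every control 12 h library. Junb had 391, 443 and 480 CPM in TNF-alpha libraries and 240, 269 and 240 CPM in control 4 h libraries (log2 fold change 0.81 ± 0.09). Fosl1, another AP-1 subunit, had 17.4, 15.1 and 14.7 CPM against 4.44, 8.27 and 5.87 CPM (log2 fold change 1.37 ± 0.19). Of 16 dual-specificity phosphatases, which switch off MAP kinases, and factors that destroy cytokine mRNAs, 10 were higher and 1 lower (median log2 fold change 0.56). All 11 also lay beyond the control 12 h libraries. Dusp5 had 23.6, 17.7 and 23.1 CPM against 4.86, 5.43 and 4.42 CPM (log2 fold change 2.13 ± 0.17), and Zc3h12c, a relative of the RNase regnase-1, 34, 32.2 and 34.6 CPM against 18.7, 18 and 22.1 CPM (log2 fold change 0.78 ± 0.08). In the JAK-STAT group 9 of 22 tested genes were higher and 1 lower, and the 9 also exceeded the control 12 h libraries. Socs3, the feedback inhibitor of gp130 signalling, had 94.4, 116 and 117 CPM against 63.9, 65.9 and 66 CPM (log2 fold change 0.74 ± 0.11), and Il6st, for gp130 itself, 483, 473 and 536 CPM against 335, 342 and 342 CPM (log2 fold change 0.55 ± 0.07).

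The cartilage matrix moved little at this time. Of 23 tested matrix genes 2 were higher and 1 was lower, 13.0% called against 21.5% of all genes tested, and the list median was 0.04. Col2a1, the main collagen of cartilage, had 76890, 81520 and 90060 CPM in TNF-alpha libraries and 85100, 88870 and 86070 CPM in control 4 h libraries (log2 fold change -0.07 ± 0.17, edgeR adjusted p 0.83), and the groups overlapped. Acan, aggrecan, had 11260, 9846 and 10030 CPM against 8572, 8852 and 7808 CPM (log2 fold change 0.30 ± 0.13, edgeR adjusted p 0.103), and Comp, a pentameric matrix protein, 11800, 10950 and 10730 CPM against 9326, 9495 and 8705 CPM (log2 fold change 0.28 ± 0.12, edgeR adjusted p 0.102). Neither passed the test. The clearest change was Epyc, a small leucine-rich proteoglycan, with 19.2, 13.1 and 15.1 CPM against 9.07, 7.58 and 6.06 CPM (log2 fold change 1.06 ± 0.23, edgeR adjusted p 0.00085). Prg4, lubricin, the lubricant of joint surfaces, fell to 377, 505 and 443 CPM with TNF-alpha, against 697, 763 and 603 CPM in control 4 h cartilage (log2 fold change -0.64 ± 0.17), but not below the control 12 h libraries (514, 510 and 478 CPM), and its call was lost without TNF-alpha 4 h replicate a (edgeR log2 fold changes of -0.75 to -0.54 over the libraries left out).

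Among 18 tested regulators of chondrocytes 1 was higher and 5 were lower (median log2 fold change -0.10), 33.3% called against 21.5% of all genes tested. Sox9, the master regulator of cartilage genes, had 151, 172 and 147 CPM against 148, 152 and 156 CPM (log2 fold change 0.05 ± 0.10), and did not pass the test. Sox6, its cofactor, fell slightly, to 146, 143 and 141 CPM with TNF-alpha, against 169, 172 and 172 CPM in control 4 h cartilage (log2 fold change -0.26 ± 0.06). Wwp2, the gene that hosts miR-140, had 996, 964 and 987 CPM against 1322, 1373 and 1270 CPM (log2 fold change -0.43 ± 0.09), Gdf5, a joint-forming BMP relative, 100, 102 and 97 CPM against 160, 153 and 130 CPM (log2 fold change -0.57 ± 0.11), and Creb5, a transcription factor of articular cartilage, 34.7, 36.4 and 31.2 CPM against 54.5, 51.6 and 56 CPM (log2 fold change -0.66 ± 0.12). These 4 falls held against the control 12 h libraries, and those of Sox6, Gdf5 and Creb5 reversed in sign against control 0 h.

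Markers of chondrocyte hypertrophy and mineralization were higher for 4 and lower for 2 of 15 tested genes (median log2 fold change -0.02), a share called of 40%. All 6 also lay beyond the control 12 h libraries. Ibsp, bone sialoprotein, had 14.6, 13 and 21.2 CPM in TNF-alpha libraries and 5.15, 4.59 and 3.15 CPM in control 4 h libraries (log2 fold change 1.90 ± 0.28), and Dmp1, a matrix protein of osteocytes, 36.9, 31.4 and 29.2 CPM against 18.7, 18.7 and 20.1 CPM (log2 fold change 0.76 ± 0.15). Alpl, alkaline phosphatase, was low, with 2.27, 1.4 and 3.37 CPM against 0.771, 0.838 and 1.08 CPM (log2 fold change 1.38 ± 0.33). Among 22 tested genes of fibrous and pericellular matrix 4 were higher and 2 lower (median log2 fold change 0.15), 27.3% called against 21.5% of all genes tested. Of these 6, 4 also lay beyond the control 12 h libraries. Tnc, tenascin C, a matrix protein of injured tissue, had 1052, 966 and 1377 CPM against 545, 570 and 574 CPM (log2 fold change 1.01 ± 0.13). Vcan, versican, had 1123, 1378 and 1327 CPM against 1875, 1725 and 1775 CPM (log2 fold change -0.49 ± 0.10), not below all control 12 h libraries. The fibroblast marker Prrx1 had 150, 138 and 147 CPM in TNF-alpha libraries against 97.5, 105 and 109 CPM in control 4 h libraries (log2 fold change 0.48 ± 0.06). Thy1, the other fibroblast marker called higher, had 16.3, 14.2 and 17.6 CPM against 13.5, 10.1 and 10.9 CPM (log2 fold change 0.47 ± 0.14). The call of Thy1 was lost without control 4 h replicate b or c or TNF-alpha 4 h replicate a or c (0.38 to 0.60 over the libraries left out). The part of fibroblast markers in the matrix values was not tested. Col1a1 averaged 7273 CPM with TNF-alpha and 5520 CPM in control 4 h cartilage and did not pass (log2 fold change 0.40 ± 0.17, edgeR adjusted p 0.0975). Of 25 genes of hyaluronan and proteoglycan synthesis and turnover 7 were higher and 6 lower. Of the 13, 11 also lay beyond the control 12 h libraries. Sdc4, the cell surface proteoglycan syndecan 4, had 2254, 2410 and 2404 CPM against 1349, 1361 and 1333 CPM (log2 fold change 0.81 ± 0.07), and Cemip, which starts the breakdown of hyaluronan, 178, 172 and 195 CPM against 100, 105 and 94 CPM (log2 fold change 0.87 ± 0.12).

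In BMP and TGF-beta signalling 7 of 29 tested genes were higher and 8 lower (median log2 fold change -0.054), and 11 of these 15 also lay beyond the control 12 h libraries. The share called was 51.7%, against 21.5% of all genes tested. Bmp2 had 185, 168 and 216 CPM in TNF-alpha libraries against 54.9, 71.8 and 55.5 CPM in control 4 h libraries (log2 fold change 1.65 ± 0.14), and Fst, follistatin, which traps activin, 211, 207 and 249 CPM against 110, 99.2 and 98.7 CPM (log2 fold change 1.11 ± 0.10). Tgfb3 went the other way, with 54.2, 54.6 and 48.4 CPM against 87.6, 73.7 and 76.1 CPM (log2 fold change -0.60 ± 0.10), as did Gdf10, with 16.1, 14.2 and 16.5 CPM against 27.3, 31.7 and 32.1 CPM (log2 fold change -0.96 ± 0.16). Ligand genes of this family thus stood on both sides.

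Of 11 tested hedgehog and PTHrP genes 6 were lower and none higher (median log2 fold change -0.21), and all 6 also lay below the control 12 h libraries. Pthlh, for PTHrP, which holds back hypertrophy, had 3.79, 3.39 and 4.01 CPM in TNF-alpha libraries against 11.1, 11.4 and 8.04 CPM in control 4 h libraries (log2 fold change -1.45 ± 0.19). Control 12 h libraries had 4.88, 5 and 5.67 CPM, still above the TNF-alpha libraries, but the difference from them did not pass the test (log2 fold change -0.47 ± 0.20, edgeR adjusted p 0.0829). The hedgehog co-receptors Gas1 and Cdon had 539, 649 and 570 and 254, 312 and 280 CPM with TNF-alpha against 1070, 999 and 1071 and 484, 458 and 477 CPM in control 4 h cartilage (log2 fold change -0.84 ± 0.10 and -0.75 ± 0.08). Against control 0 h Gas1 was reversed in sign, and Cdon did not pass.

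Of 28 tested WNT genes 4 were higher and 6 lower (median log2 fold change 0.11), 8 of the 10 also beyond the control 12 h libraries. The share called was 35.7%, against 21.5% of all genes tested. Fzd1, a WNT receptor, had 371, 355 and 412 CPM in TNF-alpha libraries against 142, 142 and 161 CPM in control 4 h libraries (log2 fold change 1.36 ± 0.12), and Rspo3, which strengthens WNT signals, 48.2, 46.1 and 49.8 CPM against 23, 22.4 and 24.4 CPM (log2 fold change 1.04 ± 0.10). The feedback inhibitor Nkd1 had 4.14, 4.13 and 5.37 CPM against 8.57, 7.58 and 7.88 CPM (log2 fold change -0.83 ± 0.13). Growth factors and receptors outside these families were higher for 11 and lower for 4 of 30 tested. Of the 15, 12 also lay beyond the control 12 h libraries. Ereg, epiregulin, a ligand of the EGF receptor, had 202, 222 and 254 CPM against 20.9, 27.5 and 23.4 CPM (log2 fold change 3.25 ± 0.16), Vegfc, a lymphatic growth factor, 8.76, 4.72 and 7.93 CPM against 1.1, 1.2 and 0.804 CPM (log2 fold change 2.78 ± 0.26), and Fgf7 29, 29.8 and 33.3 CPM against 9.96, 12.7 and 10.5 CPM (log2 fold change 1.48 ± 0.14). Each of these growth factor genes was apart from the controls in every library.

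The genes of largest fall were mostly of low level. Lgr5, a receptor for R-spondins and a marker of progenitor cells, was the most abundant of the 15 in control 4 h libraries, with 9.1, 10.2 and 10.7 CPM in TNF-alpha libraries against 36.8, 33.6 and 38.3 CPM (log2 fold change -1.86 ± 0.16, edgeR adjusted p 1.97e-11). Chrdl2, an inhibitor of BMPs, had 5.72, 10.8 and 8.97 CPM against 28.3, 26.8 and 29.5 CPM (log2 fold change -1.74 ± 0.25), and Ahsg, for the mineral-binding protein fetuin-A, 3.31, 9.52 and 7.37 CPM against 28.5, 18.9 and 21.8 CPM (log2 fold change -1.79 ± 0.37). Cnr1, the cannabinoid receptor 1, had 2.48, 3.69 and 2.4 CPM against 11.4, 10.4 and 13.1 CPM (log2 fold change -2.03 ± 0.24). The potassium channel genes Kcne3 and Kcnn3 were both among the 15, with 0.896, 1.62 and 1.04 CPM against 7.3, 5.07 and 5.66 CPM (log2 fold change -2.35 ± 0.29) and 1.45, 0.59 and 1.68 CPM against 5.17, 4.52 and 4.23 CPM (log2 fold change -1.91 ± 0.28). Adra2c, an adrenergic receptor, had the largest fall among genes of at least 1 CPM on average, with 0.483, 0.295 and 0.24 CPM against 2.77, 2.48 and 2.97 CPM, or 14 counts against 297 (log2 fold change -2.97 ± 0.39). Of the 15 genes, Cidec and Pax1 did not lie below all control 12 h libraries, and Pax1 lost its call without TNF-alpha 4 h replicate a. Against control 0 h Rasl10b reversed in sign and passed the test in that direction. Chrdl2 also reversed there (log2 fold change 0.14) but did not pass. Ahsg, Kcnn3, Olfm4, Il17a, Cidec, Pax1 and Slc2a5 kept their sign against control 0 h but did not pass.

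Cidec belongs to a marker list of adipocytes, of which 6 of 8 tested genes were lower and none higher (median log2 fold change -1.2). Lpl, lipoprotein lipase, had 11.5, 7.97 and 6.17 CPM in TNF-alpha libraries against 22.9, 14.9 and 22.5 CPM in control 4 h libraries (log2 fold change -1.23 ± 0.33), and Pparg, the regulator of fat cells, 1.24, 1.18 and 1.04 CPM against 2.71, 2.44 and 2.26 CPM (log2 fold change -1.10 ± 0.24). The summed CPM of the list was 339 to 387 in TNF-alpha libraries and 434 to 495 in control 4 h libraries, most of it Fabp4, at 347 and 407 CPM on average. Against control 12 h neither Lpl (log2 fold change -0.60 ± 0.35, edgeR adjusted p 0.217) nor Pparg (log2 fold change -0.52 ± 0.27, edgeR adjusted p 0.161) passed the test, and 3 of the 6 genes lay below all control 12 h libraries.

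The libraries parted into 2 sets in some genes. For 34 genes, 0.18% of those tested, the 8 libraries of IL-1beta 4 h, control 4 h and control 0 h lay wholly on one side of the other 30, and 31 of them were called between TNF-alpha 4 h and control 4 h, 0.766% of all called genes. All 12 tested genes of the repeat-like list were called higher, with a median of 6.70, and none of them exceeded all control 12 h libraries. Gm10800 had 1387, 644 and 856 CPM in TNF-alpha libraries, 3.59, 3.64 and 3.8 CPM in control 4 h libraries and 777, 705 and 1284 CPM in control 12 h libraries. Small structural RNAs did the same: Rmrp, the RNA of the RNase MRP enzyme, averaged 149 CPM with TNF-alpha, 39.2 CPM in control 4 h and 153 CPM in control 12 h cartilage. Among the genes with the reverse pattern was Il6ra, the receptor of IL-6, with 9.38, 12.6 and 9.21 CPM in TNF-alpha libraries, 14.8, 14.9 and 14.7 CPM in control 4 h and 9.8, 10.1 and 10.1 CPM in control 12 h libraries. Rmrp and Il6ra were named after their values were seen. None of these 31 genes passed the test between TNF-alpha 4 h and control 12 h, which 26.2% of all genes tested passed. The 34 genes were picked because control 4 h libraries lie wholly apart from TNF-alpha 4 h and control 12 h libraries. That 31 of them were called and none of these passed against control 12 h thus largely follows from the choice.

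**Figure D3:**
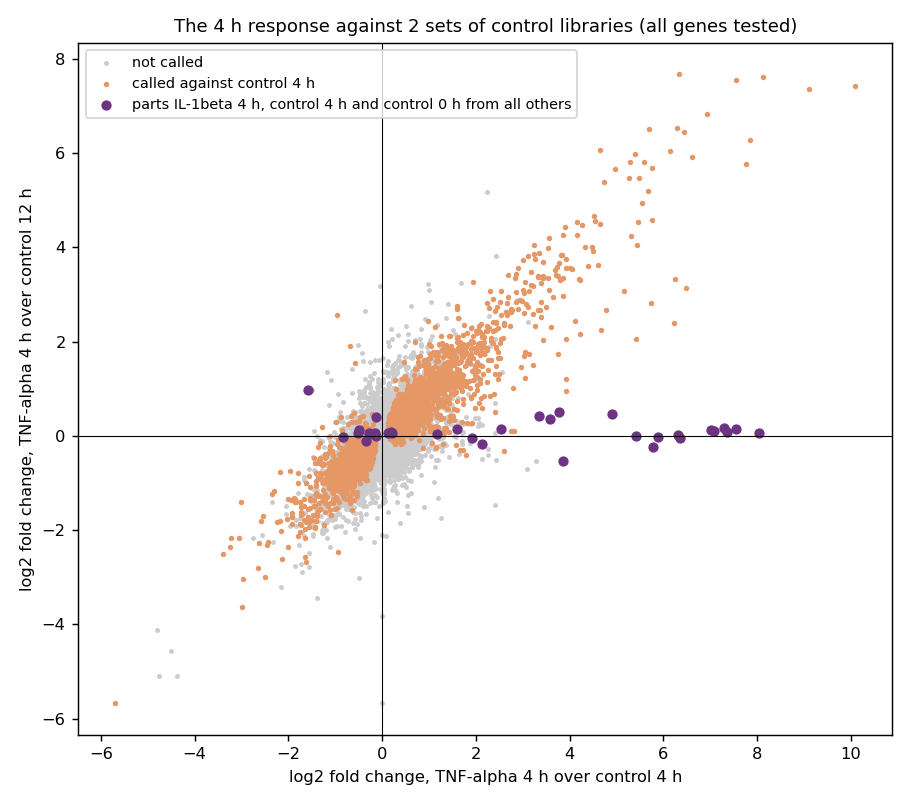
Log2 fold change of TNF-alpha 4 h over control 4 h (horizontal axis) and over control 12 h (vertical axis) for each gene tested, orange where called against control 4 h, with the 34 genes that part IL-1beta 4 h, control 4 h and control 0 h libraries from all others in purple. Both axes share the TNF-alpha libraries, so the points near the diagonal are a description. The purple genes, picked for this parting, spread along the horizontal axis from -1.58 to 8.03 and lie between -0.53 and 0.98 on the vertical one.

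How far the response at 4 h was particular to that time was tested as the TNF-alpha effect at 4 h minus its mean at 12, 24 and 72 h. The effect was more positive at 4 h for 1495 genes and more negative for 1581, 7.93% and 8.38% of the genes tested. Control 4 h libraries are alone on their side of the parting in this contrast, and the 12 repeat-like genes were all more positive. Without control 4 h replicate a 1032 genes were more negative, and with library totals in place of TMM 989 were more positive and 2685 more negative.

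Some cytokine genes peaked early. Il6 had a log2 fold change over the control of the same time of 4.33 at 4 h, 1.91 at 12 h, -0.84 at 24 h and -1.26 at 72 h, a difference of 4.39 ± 0.33 (edgeR adjusted p 2.77e-12). In TNF-alpha libraries it averaged 31.2 CPM at 4 h and 0.46 CPM at 72 h. Csf3 had 5.40, 3.41, 1.52 and 1.01 at these times (log2 difference 3.42 ± 0.93, edgeR adjusted p 0.00952), and its call was lost without control 72 h replicate a (3.16 to 4.01 over the libraries left out). Cd247, for the zeta chain of the T cell receptor complex, had 5.32, 3.15, 1.94 and 1.65 (log2 difference 3.07 ± 0.59). Nlrp3 stayed high at each time, with 10.10, 5.79, 7.90 and 5.24, and its difference of 3.79 ± 1.23 was lost without control 4 h replicate a or b or control 24 h replicate b (3.11 to 4.15).

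Genes of the hypoxia response differed between 4 h and later. Of 26 tested hypoxia and glycolysis genes 22 were more positive at 4 h than later and none more negative. At 4 h itself 3 of them were higher and 4 lower, 26.9% called against 21.5% of all genes tested. Car9, a carbonic anhydrase induced by low oxygen, had 45.9, 45.1 and 70.1 CPM in TNF-alpha libraries and 43.2, 54.2 and 52.6 CPM in control 4 h libraries, which overlapped. Its log2 fold change was 0.10 at 4 h, -1.75 at 12 h, -3.26 at 24 h and -4.77 at 72 h (log2 difference 3.36 ± 0.22, edgeR adjusted p 1.07e-13). Mgarp, a mitochondrial protein, had -0.37, -3.29, -3.76 and -3.82, and the orphan receptor Gpr35 -0.37, -3.73, -4.69 and -3.25. Matrix genes showed the same order, with 10 of 23 cartilage matrix genes and 15 of 22 fibrous and pericellular matrix genes more positive at 4 h, against 1 and none more negative. Hif1a itself was higher at 4 h, with 740, 724 and 697 CPM with TNF-alpha and 502, 509 and 484 CPM in control 4 h cartilage (log2 fold change 0.53 ± 0.06).

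Other genes responded more at later times. Saa3, an acute-phase protein, had 44, 38.6 and 54.3 CPM in TNF-alpha 4 h libraries and 39.1, 44.6 and 28.7 CPM in control 4 h libraries, which overlapped, and TNF-alpha averages of 110, 392 and 1234 CPM at 12, 24 and 72 h. Its log2 fold change was 0.28, 2.11, 2.91 and 5.28 (log2 difference -3.15 ± 0.40, edgeR adjusted p 4.51e-07). The glutathione transferase Gsta3 had -1.13, 2.94, 3.69 and 3.86 (log2 difference -4.63 ± 0.62), and Heph, hephaestin, an iron oxidase, 0.08, 2.26, 3.09 and 2.92 (log2 difference -2.68 ± 0.22). Mmp9, which was already higher at 4 h, had 3.83, 6.66, 6.70 and 7.01 (log2 difference -2.96 ± 0.78, edgeR adjusted p 0.00757), and that call was lost without control 4 h replicate c (-3.29 to -2.66). By list, 14 of 20 oxidative stress genes and 7 of 14 MHC class I genes were more negative at 4 h than later, and none more positive.

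**Figure D4:**
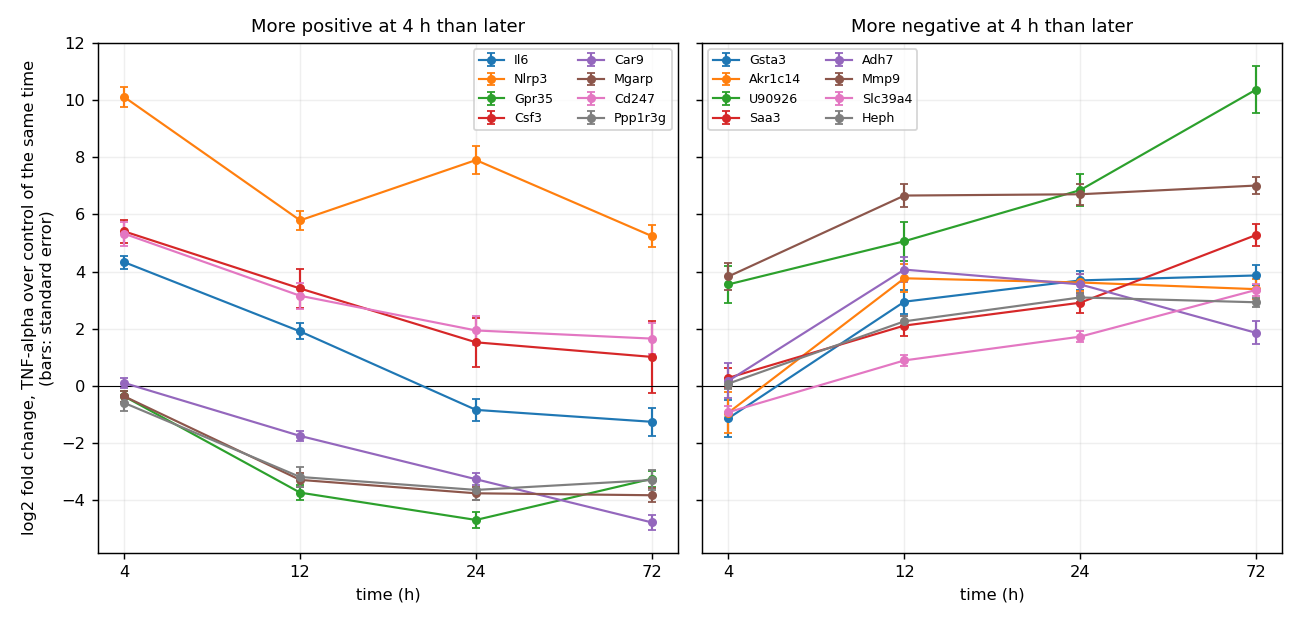
Log2 fold change of TNF-alpha over the control of the same time (vertical axis, bars for the standard error) at 4, 12, 24 and 72 h (horizontal axis, evenly spaced) for the 8 genes most positive (left) and most negative (right) at 4 h relative to later times by the naming rule. Il6 and Csf3 start high and decline, Car9, Mgarp, Gpr35 and Ppp1r3g start between -0.59 and 0.10 and turn more negative, and in the right panel all 8 genes have larger log2 fold changes at each later time than at 4 h.

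TNF-alpha and IL-1beta were also compared directly at 4 h, at the doses of 20 and 1 ng/mL that the study used, so a difference in dose and in cytokine cannot be told apart. Both cytokines share the control 4 h libraries, and the direct test does not use them. With TNF-alpha 1256 genes were higher and 1076 lower than with IL-1beta, 6.66% and 5.71% of the genes tested. Without TNF-alpha 4 h replicate a the counts were 727 and 704, and with library totals in place of TMM they were 1745 and 651. All IL-1beta 4 h libraries lie on the low side of the parting and all TNF-alpha 4 h libraries on the other. The side of the parting and the cytokine thus cannot be told apart either. Depth was 13919485 to 68655350 counts in IL-1beta libraries and 13631748 to 15427084 in TNF-alpha libraries. The 12 repeat-like genes were all higher with TNF-alpha, as were the small RNAs Rnu3a and Snord17, both among the 8 largest by the naming rule.

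By the naming rule, which leaves out predicted symbols and genes under 1 CPM on average, Pdgfb was the gene most in favour of TNF-alpha, with 13.9, 8.63 and 13.5 CPM against 2.12, 1.31 and 0.784 CPM with IL-1beta (log2 fold change 3.08 ± 0.35, edgeR adjusted p 5.6e-08). Tnfsf4, for the T cell ligand OX40L, had 3.79, 2.8 and 4.17 CPM with TNF-alpha, 0.344, 0.524 and 0.47 CPM with IL-1beta and 0.146, 0.182 and 0.278 CPM in control 4 h libraries (log2 fold change 2.90 ± 0.32). Cd247 and Neurl3 had the same order. Id4, an inhibitor of basic helix-loop-helix factors, differed by its fall with IL-1beta, with 6.21, 5.02 and 4.33 CPM with TNF-alpha, 1.26, 0.983 and 0.47 CPM with IL-1beta and 6.46, 4.45 and 5.75 CPM in control 4 h libraries (log2 fold change 2.44 ± 0.30). Among the chemokines 5 of 12 CXC and CX3C genes and 3 of 10 CC genes were higher with TNF-alpha and 1 and none lower. Cxcl10 had 54.8, 42.4 and 71.8 CPM with TNF-alpha against 10.3, 30.9 and 12.1 CPM with IL-1beta (log2 fold change 1.57 ± 0.51, edgeR adjusted p 0.0357), while Cxcl1 went the other way, with 186, 171 and 242 CPM against 593, 640 and 541 CPM (log2 fold change -1.57 ± 0.15). Irf1 had 50.2, 40.6 and 48.6 CPM against 15.3, 15.3 and 12.8 CPM (log2 fold change 1.67 ± 0.16), and Csf1 379, 329 and 401 CPM against 126, 128 and 90.4 CPM (log2 fold change 1.68 ± 0.11).

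Acute-phase genes, an amino acid carrier and a cytokine were among the 8 largest on the side of IL-1beta. Saa2 had 0.483, 1.33 and 1.52 CPM with TNF-alpha, 21.6, 29.6 and 46.2 CPM with IL-1beta and 1.65, 2.62 and 2.13 CPM in control 4 h libraries (log2 fold change -4.87 ± 0.45, edgeR adjusted p 7.7e-10), so that only the IL-1beta libraries were raised. Saa1 had 1.24, 1.92 and 2.08 CPM with TNF-alpha, 19, 19.9 and 36 CPM with IL-1beta and 2.69, 5.28 and 3.58 CPM in control 4 h libraries (log2 fold change -3.80 ± 0.43). The amino acid carrier Slc6a14 had 0.758, 0.221 and 0.481 CPM with TNF-alpha against 11.1, 16.9 and 14.5 CPM with IL-1beta (log2 fold change -4.84 ± 0.37), and the cytokine Il19 0.276, 1.18 and 0.801 CPM against 8.66, 11.1 and 13.9 CPM (log2 fold change -3.90 ± 0.38). For Saa1, Saa2 and Il19 the difference of TNF-alpha from control 4 h did not pass the test. Il6 and Nos2 were raised by both cytokines and lower with TNF-alpha, with differences of -1.50 ± 0.17 and -1.06 ± 0.19. In the NF-kappaB list 2 of 16 genes were higher and 6 lower with TNF-alpha, and in the JAK-STAT list 1 of 22 was higher and 7 were lower.

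**Figure D5:**
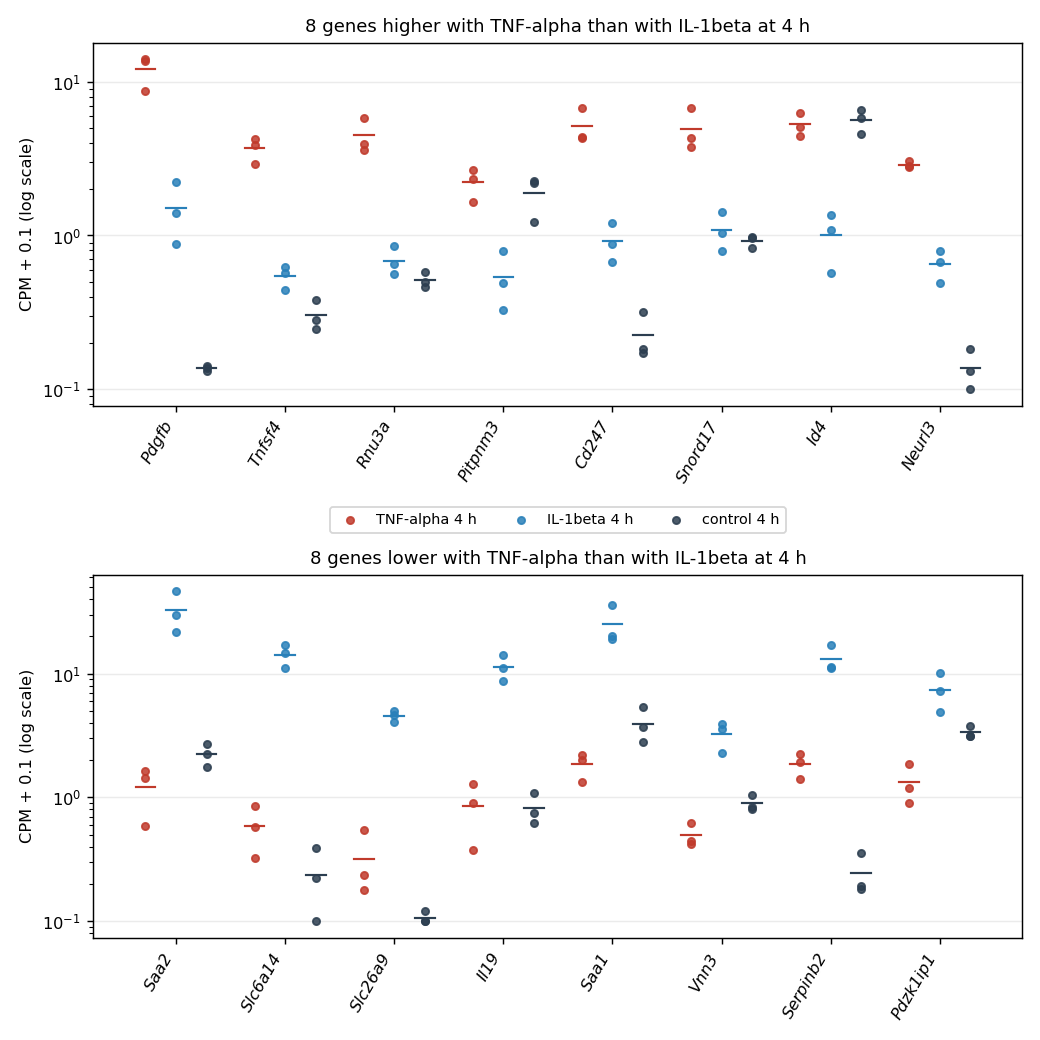
CPM of each library (log axis, 0.1 added) for the 8 genes most in favour of TNF-alpha (top) and of IL-1beta (bottom) at 4 h by the naming rule, with TNF-alpha 4 h in red, IL-1beta 4 h in light blue and control 4 h in dark blue, and short lines at the group means. In each panel the red and light blue points of a gene do not overlap, and the TNF-alpha points overlap with those of the controls for Pitpnm3 and Id4 in the top panel and for Slc6a14 and Il19 in the bottom one.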

How the data were processed

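RNA for these mRNA libraries was isolated with a Norgen kit and depleted with Ribo-Zero Gold, per the labels' protocols. Per the submitters' processing notes, mm10 was the build, and STAR, featureCounts, cutadapt and Trimmomatic were among the tools. Which annotation and strand setting they counted with is not given in the sources used here. Raw read counts for 52459 named genes were deposited by the authors, with a gene length column. Its last 2199 nameless lines (15490 counts) and the column of control 0 h replicate b, unlike every other library, were left out. The other 38 mRNA libraries entered 1 edgeR 4.0.16 fit (R 4.3.3 with limma 3.58.1) with TMM, filterByExpr, a coefficient for each group and no block. CPM were computed from the deposited counts. The test was checked on simulated data.

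Genes were named by a rule: the 15 called genes of largest log2 fold change in each direction (8 in the other contrasts) with mean CPM of at least 1 and groups apart, without predicted symbols, plus, for each list, as many as 4 of its members by lowest p, and members that missed the threshold, as a contrast. The members, lists and tests were chosen with earlier results of these data known. Col2a1 and Sox9 were added for contrast. Shares of motifs over the called genes were not computed, because fewer than 80% of the genes tested have a promoter among those from RefSeq. DESeq2 1.42.0 was an alternative. Figures come from matplotlib 3.10.9 with pandas 2.3.3, NumPy 2.4.6 and Python 3.11.15.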

Additional observations from a re-analysis of the deposited data

Results flagged for a closer look

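Every result here was picked out because the TNF-alpha effect at 4 h differed from its mean effect at 12, 24 and 72 h by the test of that difference in edgeR, and each value is a log2 difference with its standard error. The 2 counts, 1495 genes more positive and 1581 more negative at 4 h, contain genes of both kinds: effects larger at 4 h, and effects present later and small at 4 h. More positive at 4 h were Il6 (4.39 ± 0.33), Nlrp3 (3.79 ± 1.23), Gpr35 (3.52 ± 0.27), Csf3 (3.42 ± 0.93), Car9 (3.36 ± 0.22), Mgarp (3.26 ± 0.24), Cd247 (3.07 ± 0.59) and Ppp1r3g (2.78 ± 0.36), which targets a phosphatase to glycogen. Of these, Gpr35, Car9, Mgarp and Ppp1r3g did not pass the test at 4 h itself. More negative at 4 h were Gsta3 (-4.63 ± 0.62), the aldo-keto reductase Akr1c14 (-4.52 ± 0.70), U90926 (-3.87 ± 1.2), Saa3 (-3.15 ± 0.40), the alcohol dehydrogenase Adh7 (-2.98 ± 0.65), Mmp9 (-2.96 ± 0.78), the zinc carrier Slc39a4 (-2.91 ± 0.25) and Heph (-2.68 ± 0.22). U90926 lost its call without any 1 of the control 4 h libraries (-4.07 to -3.64). Control 4 h libraries differ from the other 3 control groups of this contrast in repeat-like genes and in depth, and the part of that in these values was not tested.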

How the results depend on the processing

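Against control 4 h, DESeq2 called 2064 genes higher and 1859 lower, its size factors in edgeR 2077 and 1917, no low-count filter 1690 and 2342, predicted genes left out 1878 and 1827, and control 4 h thinned to the depth of the TNF-alpha libraries (chosen after the data were seen) 1806 and 1690. Including all 39 libraries gave 1004 and 580, with 341 more positive and 428 more negative for 4 h against later times and 413 higher and 272 lower against IL-1beta. Under that setting 50 of the named results lost their call, among them Nlrp3, Mmp9 and U90926 against later times and Slc26a9 against IL-1beta. Library totals alone gave 989 more positive and 2685 more negative for 4 h against later times, and 1745 higher and 651 lower against IL-1beta, where the median log2 fold change of all genes was then 0.065. A fit on only the libraries compared gave 879 higher and 670 lower against IL-1beta. Requiring at least 2-fold left 646 and 181. Leaving out 1 library gave 1545 to 1842 higher and 1217 to 1871 lower, 1075 to 1600 more positive and 1032 to 1748 more negative, and 727 to 1001 higher and 704 to 1077 lower than IL-1beta.

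Against control 0 h (2669 higher, 2941 lower) these named genes reversed, as log2 fold changes: Cd68 0.18, Chrdl2 0.14, Creb5 0.64, Erg 0.011, Gas1 0.23, Gdf5 0.74, Hist1h1d -0.042, Hp 0.089, Insig1 0.22, Jag1 -0.0093, Notch1 -0.023, Nr1d1 0.43, Rasl10b 0.92, Sox6 0.043, Stmn2 -0.12, Tubb3 -0.60 and Vegfa 0.17. Another 27 kept their sign against control 0 h but lost their call, among them Csf1r, Dmp1, Gdf10, Lpl, Mrc1, Prg4, Pthlh, Tnc and Vcan. Against control 12 h (2532 higher, 2404 lower) no named gene reversed and 18 lost their call. The cause was not tested.

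Deviations from the group means correlated at 0.225, -0.147 and 0.0279 over 10737 genes between libraries of the same replicate letter. Between libraries of different letters they correlated at -0.184 to 0.159. With 3 libraries per group such deviations depend on each other, so the values cannot decide whether the letters pair the libraries. With the replicate block 2006 genes were higher and 1944 lower, and no named call changed. At the depth of these libraries a gene with no count in the controls allows only a bound, as for Clec4e, with 12 counts in the TNF-alpha libraries (at least 10.6-fold higher, with a floor of 3 counts over the group).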

Other observations

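Genes of programmed cell death stood on both sides at 4 h. Of 17 tested genes of apoptosis and survival 7 were higher and 3 lower, 58.8% called against 21.5% of all genes tested. Bid, which carries a death receptor signal to mitochondria, had 31, 24.6 and 31.8 CPM in TNF-alpha libraries against 5.44, 5.03 and 5.1 CPM in control 4 h libraries (log2 fold change 2.48 ± 0.11). Gadd45b, a stress gene, was lower, with 56.5, 52 and 62.4 CPM against 86.5, 85 and 70.3 CPM (-0.50 ± 0.10). Both lay beyond the control 12 h libraries on the same side.

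Of 19 tested clock genes 8 were lower and 1 higher, with a median log2 fold change of -0.19. Dbp, an output gene of the clock, had 15.4, 15.1 and 14.4 CPM with TNF-alpha against 30.5, 30.2 and 26.1 CPM in control 4 h cartilage (log2 fold change -0.95 ± 0.11), and Per3 had 19.2, 23.8 and 20.7 CPM against 34.2, 34.1 and 32.1 CPM (-0.66 ± 0.08). These genes also differ between control times: Dbp averaged 83 CPM in control 12 h cartilage. Of 18 tested cholesterol genes 8 were lower and 2 higher, Ch25h among them, with a median of -0.24. Srebf1, a regulator of lipid synthesis, had 246, 262 and 257 CPM against 392, 331 and 330 CPM (-0.46 ± 0.10), and Lss, lanosterol synthase, 48.8, 50.2 and 44 CPM against 64.8, 67.4 and 62.5 CPM (-0.44 ± 0.09). In the unfolded protein response 4 of 17 tested genes were higher and 3 lower (41.2% called). Ddit3, for the stress factor CHOP, had 21.2, 18.2 and 22.1 CPM against 29.3, 29.1 and 28.4 CPM (-0.50 ± 0.11). Of 23 tested cell cycle genes 3 were higher and 3 lower, 26.1% called, near the 21.5% of all genes tested. The inhibitor Cdkn1b had 44.9, 49.9 and 45.4 CPM against 68.7, 65.6 and 68.2 CPM (-0.53 ± 0.07) and its relative Cdkn1a 174, 172 and 181 CPM against 136, 150 and 141 CPM (0.31 ± 0.07), so the 2 inhibitors stood on opposite sides. Among 19 complement and acute-phase genes 2 were higher and 3 lower, 26.3% called, also near the share of all genes tested. Cfb, complement factor B, had 3.45, 2.66 and 5.21 CPM against 0.563, 0.583 and 0.525 CPM (2.73 ± 0.43), and Hp, haptoglobin, 407, 518 and 444 CPM against 973, 869 and 890 CPM (-1.0 ± 0.19), which reversed in sign against control 0 h (0.089) and lost its call with all 39 libraries in the fit. Of 11 tested Notch genes 2 were higher and 2 lower (36.4% called), and of 17 replication-dependent histone genes 1 was higher (5.88% called). With all 39 libraries in the fit the calls of Gadd45b, Srebf1, Lss and Cdkn1a were lost too, and against control 0 h those of Dbp and Lss.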
